A study of Mus musculus with 6 samples.

Results

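The annexins are a family of calcium-dependent, phospholipid-binding proteins, described here by their RNA in the lens of newborn mice. The 9 genes Anxa1, Anxa2, Anxa3, Anxa4, Anxa5, Anxa6, Anxa7, Anxa8 and Anxa11 were taken as members, with every probe set of the array assigned to 1 of these symbols alone. This gave 16 probe sets of 8 genes, out of 22626 probe sets of 12393 genes in all; the array's probe set for Anxa11 was assigned to several genes and is therefore not counted. The family was chosen by the measured Anxa1 values, which were lower in mutant lenses at a high level. The Anxa1 difference is for that reason a description, given without a test, and nothing is supported with it.

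Lenses of Le-AP-2alpha conditional mutants at P0 (day 0, the newborn stage), in which the transcription factor gene Tfap2a (Tcfap2a in the labels) is targeted, were compared with P0 lenses of wild-type littermates. There were 3 arrays in each group, 6 in all, and the series calls them biological triplicates. Pooling of animals is not mentioned in the labels, and p-values cover only the spread among these samples. As background, the Le-Cre line carries Cre under a Pax6 regulatory element that is active in the surface ectoderm forming lens and corneal epithelium; the labels do not give the driver, the strain or the alleles carried by the littermates. Total RNA was amplified, labelled with biotin and hybridised to a one-colour array.

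An annexin has a conserved core of repeats that binds calcium and acidic phospholipids on the cytoplasmic face of membranes, and a variable amino-terminal head that binds partners such as S100 proteins. Through this binding annexins link membranes to the actin cortex, take part in vesicle traffic and help to reseal damaged plasma membrane. The lens consists of an anterior epithelial layer and of fibre cells, which are long and rich in plasma membrane.

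The promoter windows of 3 members are shown because the mutated gene encodes a DNA-binding factor and these windows hold the letters that were searched. They are RefSeq sequences of the build GRCm38.p6, from 250 bases before to 50 bases after the annotated start. Capitals mark matches on either strand to GCCNNNGGC, a palindromic AP-2 consensus, or to TATAAA. The Anxa1 window is chr19:20390622-20390921 (minus strand), the Anxa2 window chr9:69453433-69453732 (plus strand) and the Anxa4 window chr6:86793535-86793834 (minus strand), the farther upstream of the pair listed for Anxa4.
Anxa1: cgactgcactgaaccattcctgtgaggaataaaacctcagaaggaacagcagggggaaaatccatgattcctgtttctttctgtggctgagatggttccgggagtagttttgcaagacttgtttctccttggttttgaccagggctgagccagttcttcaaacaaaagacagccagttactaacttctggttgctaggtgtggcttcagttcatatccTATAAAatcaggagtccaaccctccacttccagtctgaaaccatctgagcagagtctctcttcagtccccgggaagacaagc
Anxa2: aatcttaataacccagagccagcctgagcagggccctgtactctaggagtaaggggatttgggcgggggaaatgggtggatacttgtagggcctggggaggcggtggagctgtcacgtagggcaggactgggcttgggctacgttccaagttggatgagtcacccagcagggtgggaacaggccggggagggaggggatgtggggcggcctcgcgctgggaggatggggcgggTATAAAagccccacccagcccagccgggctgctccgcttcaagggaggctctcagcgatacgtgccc
Anxa4: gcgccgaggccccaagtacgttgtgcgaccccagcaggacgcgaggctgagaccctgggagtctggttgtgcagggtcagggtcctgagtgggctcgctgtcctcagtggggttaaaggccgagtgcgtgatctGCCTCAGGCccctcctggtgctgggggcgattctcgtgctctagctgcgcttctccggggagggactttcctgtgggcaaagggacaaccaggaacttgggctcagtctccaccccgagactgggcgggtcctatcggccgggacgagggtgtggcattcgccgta
The TATAAA letters began 32 bases before the start in Anxa1 and 17 bases before it in Anxa2, and the AP-2 letters began 116 bases before the start in Anxa4. Windows were listed for 7 of the 9 members, 9 windows in all. Of these, 1 held GCCNNNGGC and 2 held TATAAA, against 16.6% and 13.6% of the 32851 windows of the same length in the table. These are matches of letters and not measured sites.

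The 6 arrays were alike in scale, with median log2 levels of 5.19 to 5.32. Wild-type replicate 1 stood apart: its Pearson correlations across probe sets with the other arrays were 0.926 to 0.945, against 0.974 to 0.985 among the other 5, and the value without it is given beside a difference or list median whose sign turns, or whose size moves by over 1.5 times, when it is left out. The brightest Tfap2a probe set had log2 levels of 9.57, 9.64 and 9.83 in mutants, against 8.36, 9.26 and 9.56 in wild types. Its mutant mean lay 0.62 ± 0.33 (SE) higher, or 0.27 higher once wild-type replicate 1 is dropped, and the groups were 0.01 apart. The other Tfap2a probe sets were higher by 1.57 ± 0.49 and 0.36 ± 0.36, with overlapping groups. The limma adjusted p was 0.999 for each. The targeted gene's mean signal was thus higher, not lower, on the arrays labelled mutant. Which part of the gene these probe sets cover is not known here, so this does not check the deletion. A probe set is called dim below when its mean lay under 5.26, the median log2 level over all probe sets. Because probe sets bind with different strength, levels of different genes are not set against each other. In whole lenses, fewer cells of a type and less RNA per cell cannot be told apart.

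Anxa1, a glucocorticoid-induced protein that restrains the release of arachidonic acid and acts through formyl peptide receptors, was 4.53-fold lower in mutants. Its single probe set had log2 intensities of 8.37, 9.13 and 8.51 in mutants, against 10.35, 11.02 and 11.18 in wild types. The groups did not overlap: the highest mutant, replicate 2, lay 1.22 below the lowest wild type, replicate 1. Mutants averaged 8.67 ± 0.41 and wild types 10.85 ± 0.44 (SD, n = 3 each), a log2 difference of -2.18 ± 0.31 (SE). The gene stayed bright in both groups, at the 79.8th percentile of its array or higher on all 6 arrays. Among the 1407 genes with a mean level at or above that of Anxa1, it had the most negative difference, and over all 12393 genes 5 had a difference as negative as this, Anxa1 included. Anxa1 was picked by its level and its difference, so these ranks are a description and nothing is read from them. Leaving out wild-type replicate 1 gave -2.43, and leaving out each array in turn gave -2.43 to -2.02.

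**Figure D1:**
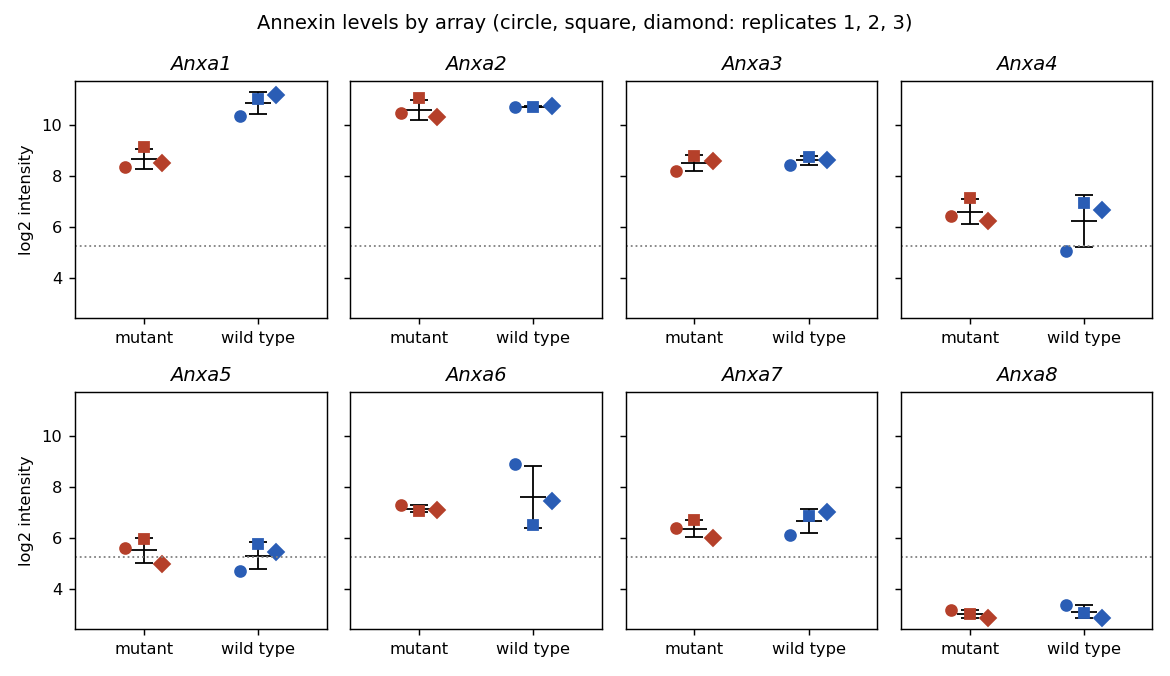
Log2 intensity of the brightest probe set of each measured annexin on each of the 6 arrays, mutants (red) left of wild types (blue). Symbols are replicates, black bars mean ± SD, and the dotted line is the median probe set at 5.26. Mutant Anxa1 values of 8.37 to 9.13 lie below wild-type values of 10.35 to 11.18, and the groups overlap in the other 7 panels.

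Anxa2, which forms a complex with S100a10 at the plasma membrane and binds plasminogen and its tissue activator, was nearly level between the groups. Its bright probe set had log2 levels of 10.45, 11.03 and 10.29 in mutants, against 10.70, 10.69 and 10.74 in wild types. The wild types lay within the range of the mutants, and replicate 2 was the highest mutant for Anxa2 as for Anxa1. The difference was -0.12 ± 0.24 (SE), with a 95% interval of -0.69 to 0.45, so a fall of more than 0.69 lay outside it. Relative to Anxa2 on the same array and to the wild-type mean of that ratio, Anxa1 was at -2.22, -2.04 and -1.92 in mutants, against -0.49, 0.19 and 0.29 in wild types (log2). The other probe sets of Anxa2 were dim, with means of 2.87 and 2.50, and differed by -0.25 ± 0.19 and -0.17 ± 0.18, the second by -0.11 without wild-type replicate 1.

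Anxa3, a protein abundant in neutrophils that aggregates granules, was as close. It had log2 levels of 8.18, 8.78 and 8.60 in mutants, against 8.44, 8.75 and 8.62 in wild types, and the lowest and the highest of the 6 values were both mutants. The difference was -0.09 ± 0.22 (SE), with a 95% interval of -0.62 to 0.45, and -0.17 without wild-type replicate 1. Relative to Anxa3 on the same array, Anxa1 was at -2.06, -1.89 and -2.33 in mutants, against -0.34, 0.03 and 0.31 in wild types. Relative to the brightest probe sets of Anxa4, Anxa5, Anxa7 and Anxa8, the groups were apart as well. Relative to Anxa6 they overlapped, at -2.17, -1.16 and -1.83 in mutants, against -1.77, 1.27 and 0.50 in wild types. Nothing is read from these ratios, as the Anxa1 contrast chose the family.

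Anxa4, an annexin of epithelial membranes, and Anxa5, which covers exposed phosphatidylserine and is the usual probe for dying cells, had means that lay slightly higher in mutants. The bright probe set of Anxa4 had log2 levels of 6.44, 7.16 and 6.23 in mutants, against 5.08, 6.93 and 6.69 in wild types, a difference of 0.38 ± 0.53 (SE). Wild-type replicate 1 alone was low, and without it the difference was -0.20. Anxa5 had levels of 5.62, 5.94 and 4.97 in mutants, against 4.71, 5.74 and 5.44 in wild types, a difference of 0.21 ± 0.36, and -0.08 without wild-type replicate 1. Both signs thus turned on that array, and the 95% intervals with all arrays, -0.90 to 1.65 for Anxa4 and -0.66 to 1.08 for Anxa5, span 0. The second, dim probe set of Anxa4 differed by -0.24 ± 0.31, and by -0.58 without that array.

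Anxa6, which carries a duplicated annexin core and acts in endosome and cholesterol traffic, showed the opposite array pattern. Its brightest probe set had log2 levels of 7.29, 7.04 and 7.08 in mutants, against 8.87, 6.50 and 7.42 in wild types. The mutants were tightly grouped between the wild types, and wild-type replicate 1 was high where it had been low for Anxa4 and Anxa5. The difference was -0.46 ± 0.57 (SE), and 0.17 without that array. The other bright probe set of Anxa6 differed by -0.37 ± 0.40 and the dim one by -0.36 ± 0.39, and these became 0.01 and 0.06 without wild-type replicate 1.

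Anxa7, or synexin, a membrane fusion protein that binds the calcium sensor sorcin, had log2 levels of 6.40, 6.69 and 6.004 in mutants, against 6.13, 6.86 and 7.02 in wild types. The groups overlapped, with a difference of -0.30 ± 0.31 (SE), and -0.57 without wild-type replicate 1. Its other bright probe set differed by 0.08 ± 0.35, and by -0.30 without that array. The dim one ranged over 3.96 to 4.49 in mutants and 3.28 to 6.69 in wild types, with a difference of -0.65 ± 0.80, the widest error in the family, and 0.23 without wild-type replicate 1.

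Anxa8, an annexin of stratified epithelia, was dim on every array. Its brighter probe set had log2 levels of 3.17, 3.04 and 2.88 in mutants, against 3.38, 3.08 and 2.88 in wild types, and these values overlapped (-0.09 ± 0.20, SE, and 0.05 without wild-type replicate 1). For its other probe set every mutant array lay below every wild-type array, at 2.60, 3.02 and 3.06 in mutants against 3.11, 3.14 and 3.41 in wild types. The gap was 0.05, at levels between the 8.69th and 29.1st percentile of the arrays. The difference was -0.33 ± 0.21. The annexins outside the 9 members, Anxa9, Anxa10 and Anxa13, were dim as well, with 4 probe sets that differed by -0.25 to 0.03 and overlapping groups in all 4. Leaving out wild-type replicate 1 gave -0.08 to 0.08.

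**Figure D2:**
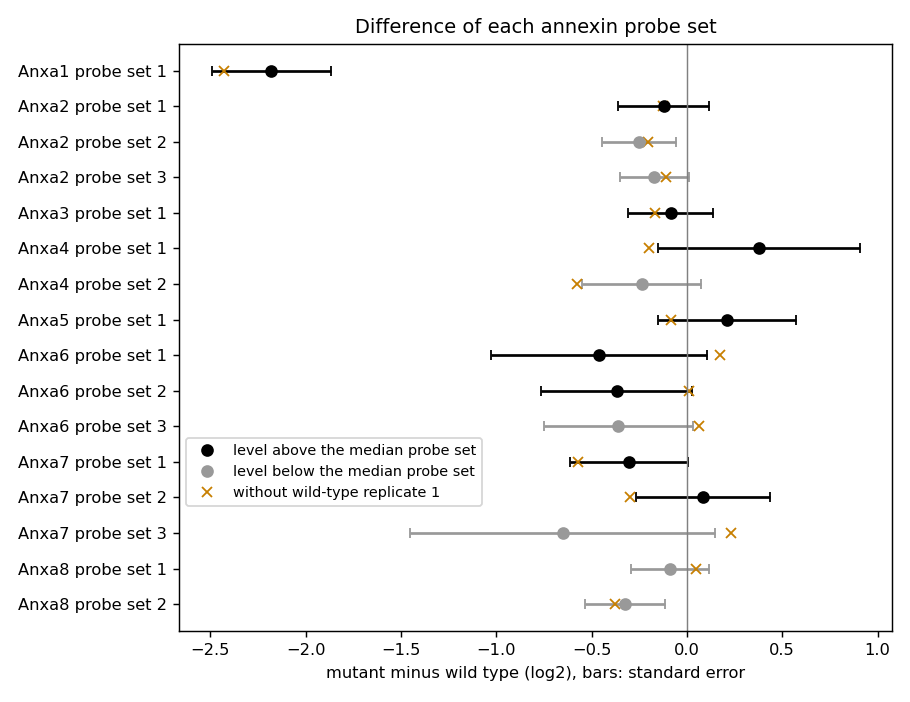
Mutant minus wild type (log2) of each of the 16 annexin probe sets, numbered from the brightest of each gene, with the standard error of the fit. Black points are probe sets above the median level and grey points dim ones; crosses give the value without wild-type replicate 1. Anxa1 lies at -2.18 and the other 8 bright probe sets between -0.46 and 0.38, each within 1 standard error of 0.

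Across the family, limma called 0 of 16 probe sets at an adjusted p under 0.05, where it called 0% of all 22626, and no other testing tool was run. At an unadjusted p under 0.05 there was 1 of 16, Anxa1 itself, against 3.28% of all probe sets; as its contrast chose the family, nothing is read from this count. The other 15 probe sets had limma adjusted p of 0.999. Of the 15, 12 had lower and 3 higher values in mutants, where 53.6% of all probe sets were lower, and their median was -0.24, beside -0.02 over all probe sets. Without wild-type replicate 1, 10 were lower and 5 higher, with a median of -0.13, where 50.9% of all probe sets were lower. Every mutant array lay below every wild-type array for 2 of 16, Anxa1 and the dim Anxa8 probe set, against 4.61% of all probe sets. Anxa1 chose the family, and among the other 15 only that dim Anxa8 probe set did so, so nothing is read from this count. No member had every mutant array above every wild-type array (0 of 16, against 3.74%). A missed threshold does not show that a gene did not differ.

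Genes that work with annexins were measured from 7 lists, and limma called 0 of their 61 measured genes, where it called 0% of all genes. At an unadjusted p under 0.05 the share over all genes was 3.85%. Of all 12393 genes, 5919 were higher and 6474 lower in mutants. This is the background for the counts of higher and lower genes in these lists and in the cell type lists. Among the S100 proteins, small calcium sensors that bind annexin heads, 4 of 7 were higher and 3 lower, with a median of 0.06 (-0.000605 without wild-type replicate 1), beside -0.01 over all genes. S100a10, the partner of Anxa2, had log2 levels of 7.15, 7.01 and 5.11 in mutants, against 5.53, 6.24 and 6.60 in wild types, a difference of 0.30 ± 0.59 (SE), and -0.000605 without wild-type replicate 1. The lowest and the highest value of S100a10 were both mutants. S100a16 differed by -0.16 ± 0.45, and by 0.38 without that array, and the dim S100b by -0.32 ± 0.19, and for S100b all mutants lay below all wild types. That makes 1 of 7, against 4.58% of all genes. S100a11, the partner of Anxa1, was not measured by a probe set of its own.

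Of the membrane repair and trafficking proteins, 6 of 11 were higher and 5 lower, with a median of 0.02 (-0.11 without wild-type replicate 1). Dysf, dysferlin, which gathers annexins at membrane wounds, had log2 levels of 6.02, 6.20 and 4.72 in mutants, against 6.68, 5.99 and 6.16 in wild types. Only mutant replicate 3 was clearly low, and the difference was -0.63 ± 0.43 (SE). Chmp4b, an ESCRT-III subunit that closes membrane necks, differed by 0.30 ± 0.22, and the dim protease gene Capn1 by -0.43 ± 0.32; without wild-type replicate 1 these were 0.45 and -0.11. The 11 measured linkers of cortical actin and membrane had a median of -0.04, with Rdx at 0.40 ± 0.39, Actn4 at -0.34 ± 0.43 and Ezr at -0.13 ± 0.23. With wild-type replicate 1 left out they were -0.05 for Rdx, -0.08 for Actn4 and -0.03 for Ezr, so that array carried most of each difference. The genes of phosphatidylserine exposure and recognition had a median of -0.07 over 7 (0.00456 without wild-type replicate 1), with the bridging protein Mfge8 at -0.76 ± 0.49, the receptor Axl at 0.53 ± 0.36 and the flippase subunit Tmem30a at 0.33 ± 0.33. Without that array Axl was at 0.14 and Tmem30a at 0.01. No gene of these 3 lists separated the groups (0 of 29). Over all genes, 4.58% had every mutant below every wild type and 4.22% every mutant above, so nothing is read from this count.

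Fpr2, a receptor for Anxa1, was dim, with log2 levels of 2.93, 2.77 and 2.67 in mutants, against 3.03, 2.73 and 2.65 in wild types. The values of Fpr2 overlapped throughout (-0.01 ± 0.19, SE, and 0.10 without wild-type replicate 1). Of the 8 measured formyl peptide receptor and eicosanoid genes 4 were higher and 4 lower, with a median of 0.05 (-0.05 without that array), and 1 was brighter than the median probe set. The lipoxygenase gene Alox15, which oxygenates arachidonic acid, was dim and had levels of 3.62, 3.10 and 4.09 in mutants, against 5.67, 4.92 and 4.64 in wild types. Each mutant was below each wild type (1 of 8, against 4.58% of all genes), with a difference of -1.47 ± 0.36 and -1.18 without wild-type replicate 1. Ptgs2, the inducible cyclooxygenase, was also dim and had levels of 4.89, 3.60 and 3.61 in mutants, against 3.28, 2.81 and 3.48 in wild types. All mutants were above all wild types (1 of 8, against 4.22% of all genes), with a difference of 0.85 ± 0.40. Alox5ap, the 5-lipoxygenase activating protein, differed by 0.47 ± 0.27. The 5 measured genes of plasminogen activation all had higher values in mutants, with a median of 0.21, and 0.05, with 3 of 5 higher, without wild-type replicate 1. Those of lowest p were all dim, Plat at 0.45 ± 0.24, Plaur at 0.25 ± 0.30 and Plg at 0.21 ± 0.18, with Plat at 0.27 and Plaur at 0.05 without that array.

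The glucocorticoid receptor and its responsive genes, a group that Anxa1 belongs to in other tissues, had higher values in mutants for 11 of 12, with a median of 0.86. Without wild-type replicate 1 this was 8 of 12 with a median of 0.34, and without mutant replicate 3 the median was 0.44. Fkbp5, a co-chaperone of the receptor, had log2 levels of 6.93, 6.75 and 8.002 in mutants, against 6.07, 6.38 and 6.55 in wild types. Each mutant was above each wild type for Fkbp5 and for the dim clock gene Per1 (2 of 12, against 4.22% of all genes), with differences of 0.89 ± 0.36 and 0.61 ± 0.30 (SE), that of Per1 0.38 without wild-type replicate 1. Zbtb16, a zinc finger repressor, differed by 0.63 ± 0.31 with overlapping groups. The receptor gene Nr3c1 had levels of 8.89, 8.90 and 8.66 in mutants, against 6.28, 9.18 and 8.16 in wild types. The kinase gene Sgk1 had levels of 11.07, 11.15 and 10.84 in mutants, against 7.60, 11.46 and 10.91 in wild types. In both genes wild-type replicate 1 alone was low: the difference of Nr3c1 was 0.94 ± 0.69, and 0.15 without that array, and that of Sgk1 was 1.03 ± 0.96, and -0.17 without it. The one lower gene, Cebpd, was dim and differed by -0.30 ± 0.20, and by -0.17 without that array.

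**Figure D3:**
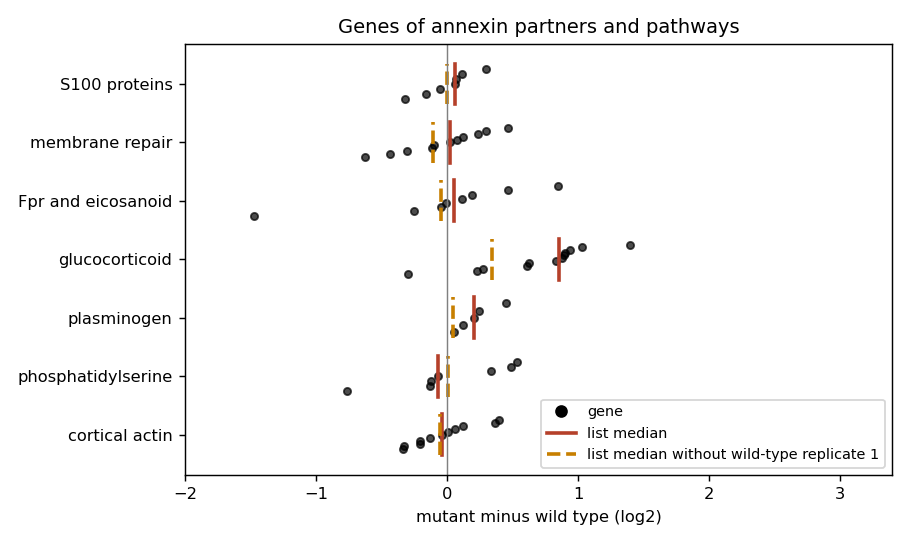
Mutant minus wild type (log2) of every measured gene in the 7 lists of annexin partners and pathways, with the list median in red and the median without wild-type replicate 1 dashed. The glucocorticoid list has a median of 0.86 with all arrays and 0.34 without that array, and the other 6 medians lie between -0.07 and 0.21.

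The genes whose values ran most like Anxa1 were found by the root mean square difference between log2 profiles over the 6 arrays, each centred on its own mean, among 6860 genes at or above the median level. The closest were Pygl, the liver glycogen phosphorylase (0.43), Cdh1, the epithelial cadherin (0.50), Myo5b, a motor of membrane recycling (0.51), Gstm1, a glutathione transferase (0.59), and Cpt1a, a mitochondrial fatty acid carrier enzyme (0.59). Cdh1 had log2 levels of 7.55, 7.68 and 7.12 in mutants, against 8.21, 9.14 and 8.89 in wild types. As for Anxa1, replicate 2 was the highest mutant and replicate 1 the lowest wild type. Pygl had levels of 5.11, 5.10 and 5.42 in mutants, against 7.56, 7.18 and 7.54 in wild types, with replicate 3 the highest mutant. The choice picks genes that separate the groups as Anxa1 does, so their differences are a description too.

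**Figure D4:**
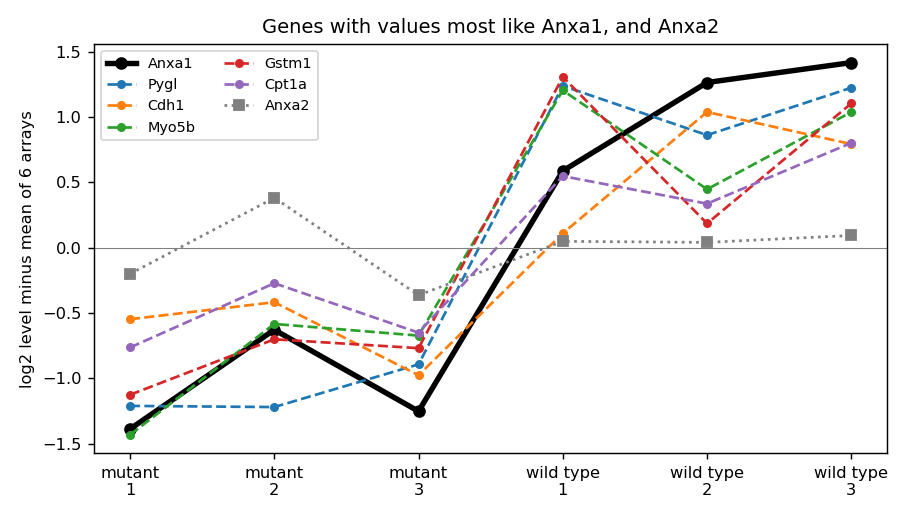
Log2 level minus the mean over the 6 arrays for Anxa1 (black), the 5 genes of smallest root mean square difference from it, and Anxa2 (grey) for contrast; lines only guide the eye. Anxa1 and the 5 genes lie below 0 on all mutant arrays and above 0 on all wild-type arrays, whereas the Anxa2 mutants lie on both sides of 0.

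Cells other than lens cells also carry annexins, so their markers were measured beside them. The 16 macrophage markers had mean list levels of 5.19 to 6.56 on mutant arrays and 5.09 to 5.16 on wild-type arrays (log2), with 14 of 16 higher, a median difference of 0.69 (0.21 without mutant replicate 2, 1.04 without mutant replicate 1) and 8 of 16 brighter than the median probe set. Ptprc, the leukocyte phosphatase, was dim, with levels of 3.69, 5.07 and 4.56 in mutants, against 3.49, 3.34 and 3.23 in wild types, and Cd68 and Lyz2 differed by 0.90 ± 0.37 and 0.81 ± 0.34 (SE). Mutant replicate 2, which had the highest mutant level of Anxa1, Anxa2, Anxa3, Anxa4, Anxa5 and Anxa7 (brightest probe sets), also had the highest macrophage level. This was not particular to macrophages. The same array was the highest mutant for the neutrophil, corneal and skin epithelium, endothelial and fibre lists. It was not the highest for the mesenchyme, retina, red blood cell and lens epithelium lists. The 9 neutrophil markers ranged over 3.18 to 3.65 in mutants and 3.28 to 3.48 in wild types, with 1 of 9 above the median probe set, a median difference of 0.03 (0.15 without wild-type replicate 1), and S100a9 at 1.38 ± 0.48, Ltf at -0.97 ± 0.39 and Ngp at 0.34 ± 0.19. The 12 corneal and skin epithelium markers ranged over 4.01 to 4.04 in mutants and 3.91 to 3.99 in wild types, with 2 of 12 above the median probe set, a median of 0.05, and Krt14 at 0.29 ± 0.19, Trp63 at 0.24 ± 0.24 and Sfn at -0.22 ± 0.21. Without wild-type replicate 1 Trp63 was at 0.44 and Sfn at -0.06. The part of these cells in the annexin values was not tested.

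The other marker lists moved as follows. Endothelial markers ranged over 6.13 to 6.59 in mutants and 6.30 to 6.58 in wild types, with a median of -0.14 over 11 and Pecam1 at -0.49 ± 0.35, Cldn5 at -0.58 ± 0.44 and Esam at 0.41 ± 0.31 (log2, SE). Without wild-type replicate 1 that median was -0.08 and Esam was at 0.14. Stroma and periocular mesenchyme markers ranged over 4.89 to 5.68 in mutants and 4.43 to 4.93 in wild types, with 12 of 13 higher (9 of 13 without wild-type replicate 1), a median of 0.47 (0.29 without mutant replicate 1, 0.77 without mutant replicate 3, 0.72 without wild-type replicate 2), and Col6a1 at 1.27 ± 0.20, Col5a2 at 0.67 ± 0.29 and Col1a1 at 1.32 ± 0.60 (0.83 without wild-type replicate 1). Retina and pigment cell markers ranged over 6.98 to 7.44 in mutants and 6.20 to 6.84 in wild types, with 11 of 13 higher, a median of 0.64 (0.41 without wild-type replicate 1), and Tubb3 at 1.28 ± 0.40, Stmn2 at 1.43 ± 0.46 and Pmel at 0.74 ± 0.24. The markers did not move as one: Mitf was at -0.29 ± 0.17 and the dim Rpe65 at -0.43 ± 0.19. Every mutant lay above every wild type for 4 of 13 (4.22% of all genes), and below for 2 of 13, Mitf and Rpe65 (4.58% of all genes). Red blood cell markers ranged over 3.57 to 4.56 in mutants and 3.56 to 4.95 in wild types, with a median of -0.18 over 4 and Ank1 at -0.68 ± 0.51, Epb42 at -0.19 ± 0.17 and Alas2 at 1.15 ± 1.44. Without wild-type replicate 1 that median was -0.06, Ank1 was at -0.45 and Alas2 at 2.41. The cells of the lens itself were clearly represented: fibre markers ranged over 11.08 to 11.42 in mutants and 11.54 to 11.91 in wild types, with 7 of 8 lower and a median of -0.40 (-0.20 without mutant replicate 1, -0.16 without wild-type replicate 3). Of these, Dnase2b differed by -1.44 ± 0.41, Bfsp1 by -0.65 ± 0.22 and Gja3 by -0.72 ± 0.35 (-0.45 without wild-type replicate 1). Lens epithelium markers ranged over 8.34 to 8.50 in mutants and 8.53 to 8.93 in wild types, with 6 of 10 lower (9 of 10 without wild-type replicate 1) and a median of -0.35. Cdh1 is among them, with Slc38a3 at -1.04 ± 0.40, the dim Foxe3 at -0.71 ± 0.29 and Pax6 at 0.47 ± 0.47; without wild-type replicate 1 Slc38a3 was at -0.68 and Pax6 at -0.07. limma called 0 genes of these lists. Anxa1, and the fibre and lens epithelium lists, were thus lower on all mutant arrays than on all wild-type arrays, and the macrophage, retina, and corneal and skin epithelium lists were higher on all of them. Margins were small for corneal and skin epithelium (lowest mutant 4.007, highest wild type 3.989), macrophages (5.187 against 5.159) and lens epithelium (highest mutant 8.499, lowest wild type 8.529). Of the 12 corneal and skin epithelium markers, 8 were higher and 4 lower, and 6 and 6 without wild-type replicate 1. For 0 of these 12 were the groups apart. How far the Anxa1 difference goes with the share of any of these cells was not tested.

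As a measure of RNA quality, the 3' minus 5' difference of the Gapdh control probe sets was 1.07, 1.39 and 0.75 in mutants, against 1.07, 0.73 and 1.20 in wild types (log2), and that of the Actb controls was 1.79, 2.16 and 1.25 in mutants, against 1.54, 1.24 and 2.17 in wild types. The groups overlapped for both controls, and replicate 2 was the highest mutant for both. The part of RNA quality in the annexin values was not tested.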

How the data were processed

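The deposited values are probe set intensities, made by the authors with RMA (background correction, quantile normalisation and probe summary), per the submitters' processing notes, which give no version or settings. They are on a linear scale, whereas RMA commonly gives log2 values, and no source used here says how they were converted. RMA can compress differences of dim probe sets. Intensities were log2-transformed without a pseudocount after 64 control probe sets were dropped. No array was a copy of another: at most 0.186% of values were equal between arrays.

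Genes were named from the platform annotation of 2016 (20380 probe sets with 1 symbol, 691 with several, 1555 with none) and are represented by their brightest probe set. limma 3.58.1 in R 4.3.3 (lmFit, eBayes) compared mutant with wild type over all 22626 probe sets, with no covariate, Benjamini-Hochberg adjustment and a threshold of 0.05. Differences are mutant minus wild type ± SE, with 95% intervals from the moderated fit. On simulated arrays with the means and spreads of these data, the fit called 20% of 50 probe sets raised by log2 1. It called 42% of those raised by 2, and 88% of those raised by 3 or by 4, with 8 false calls. The simulated noise was normal and independent, with no outlying array such as wild-type replicate 1, so these shares need not hold for the real arrays. Many true changes of the smaller sizes were missed in the simulation and could be missed here. The number of arrays limits the precision.

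Named genes were all annexin probe sets, the 3 genes of lowest p in each of 17 lists (160 of 182 entries measured), 8 fixed genes and the 5 genes most like Anxa1. Beyond this rule, Nr3c1, Sgk1, Cebpd, Mitf and Rpe65 were named with their values known. The members and lists were chosen with earlier results of these data known. As alternatives, the replicate number entered as a block, arrays were centred on their medians or quantile normalised, dim probe sets were removed, 16 was added to each intensity, and a trended prior, array weights, removal of each array, a threshold of 0.1 and averaged probe sets of a gene were tried. The removal of both wild-type replicate 1 and mutant replicate 2 was added after seeing the data.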

Additional observations from a re-analysis of the deposited data

How the results depend on the processing

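The Anxa1 difference was below 0 in all 15 alternatives, at -2.66 to -2.02; the lowest value came with both wild-type replicate 1 and mutant replicate 2 removed, and leaving out 1 array gave -2.43 to -2.02. Because the groups did not overlap, leaving out arrays could not turn the sign. The block, the trended prior, removal of dim probe sets and averaging leave the value at -2.18 by construction. Nothing is therefore read from this count of signs. With the replicate number as a block limma still called 0 annexin probe sets. The replicate numbers give no pairing: deviations of same-numbered arrays correlated at -0.07, -0.26 and -0.16. Those of arrays with different numbers ranged from -0.17 to 0.30, the highest for mutant replicate 2 with wild-type replicate 3. Pairing of littermates under other numbers was not tested. With array weights limma called 1 annexin probe set, Anxa1, and 7 of 22626 probe sets, where the weight of wild-type replicate 3 was 5.65 and that of replicate 1 was 0.22; as the Anxa1 contrast chose the family, nothing is read from that call. In the other alternatives, a threshold of 0.1 and leaving out any 1 array included, it called 0 annexins, and 0 of all probe sets wherever probe sets were fitted (with averaged probe sets, only genes were). limma called 0 genes of the partner and cell type lists with the settings as reported and in each of the 15 alternatives. Members other than Anxa1 were called 0 times, but 13 of the 16 probe sets lay within 1 standard error of 0 as reported and their signs were not stable: 10 of the 15 turned sign in at least 1 alternative, in 23 of 210 values, such as the dim Anxa7 probe set at 0.75 with array weights. Those 210 include values with the block, the trended prior and dim probe sets removed, which keep their sign by construction. Of 254 list medians compared, 8 moved by more than the spread between arrays. The macrophage median was 0.21 without mutant replicate 2 and the fibre median -0.20 without mutant replicate 1 and -0.16 without wild-type replicate 3; the cause was not tested. Signal limits what can be read for the 7 dim annexin probe sets, Anxa8 among them.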
